A study of Mus musculus with 466 samples.

Results

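Acute phase genes encode plasma proteins that the liver releases in larger amounts when inflammatory cytokines reach it, and several of them are also made in fat. The 9 genes described here were chosen by symbol: Saa1, Saa2 and Saa3 (serum amyloid A proteins, carried on high density lipoprotein), Orm1 and Orm2 (orosomucoids, plasma carriers of small molecules), Lcn2 (lipocalin 2, which binds bacterial siderophores), Hp (haptoglobin, which binds free haemoglobin), Apcs (serum amyloid P component, a pentraxin) and Itih4 (an inter-alpha-trypsin inhibitor heavy chain). A probe set carried the symbol of 8 of them, 1 probe set each, among 16643 named genes and 32640 probe sets. No probe set carried the symbol Saa1, and the current gene table gives Saa1 and Saa2 as synonyms of each other, so the probe set named Saa2 may read either of these similar copies. Orm1 and Orm2 are also similar copies, and their values may share signal.

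The series followed male C57BL/6J mice, obese by its title, through caloric restriction, with Affymetrix arrays of biotin-labelled total RNA. The groups used here are mice killed after 0, 1, 3, 7, 14, 21, 42 or 60 days of restriction, with 12, 5, 11, 12, 10, 12, 12 and 6 livers in that order of days. The same 80 animals gave 78 arrays labelled subcutaneous fat, 79 mesenteric, 80 perirenal and 75 perigonadal, which with liver makes 392 arrays. How the mice became obese, the diet and its restriction are not given in the sources used here. No mouse without restriction was sampled after day 0, so restriction cannot be told apart from time. Animal IDs open with J or N, whose meaning is not given, and 1 mouse of day 3, numbered 32, has no letter. All mice of day 1 have the letter J and all of day 60 the letter N, so the letter was a term of every fit and mouse 32 did not enter the contrasts.

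In mouse hepatocytes, interleukin 6 acts through STAT3 and interleukin 1 through C/EBP factors and NF-kB to raise transcription of these genes. Saa1 and Saa2 are chiefly hepatic, while Saa3 is made in many tissues, among them adipocytes and macrophages. Haptoglobin, orosomucoid 1 and lipocalin 2 are also known products of adipocytes. Lipocalin 2 is released by neutrophils as well.

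The tissue labels were checked before any result. Alb had a median of 35.7 in liver and of 0.279 to 0.789 in the depots, and Adipoq a median of 0.0461 in liver and of 18.3 to 19.1 in the depots. The depot names matched their markers less well. Of the mesothelium of visceral fat, the genes Wt1 and Upk3b had their highest medians in the depot labelled subcutaneous (0.752 and 4.24) and their lowest in the depot labelled perigonadal (0.0202 and 0.0814). The median of the enterocyte gene Fabp2 was 11.5 under the label subcutaneous and 0.0286 to 0.0410 in the other depots. The epididymal genes Adam7 and Lcn5 reached 6.05 and 6.47 in single arrays labelled mesenteric. Tbx15 (0.520) and the muscle gene Ckm (1.16) had their highest medians in the depot labelled perigonadal, and Ucp1 (11.8) in the depot labelled perirenal. The depots are therefore called by their labels throughout, with no claim as to site. Markers of other tissues were high in whole depots and not in single arrays alone. The intestine gene Vil1 had a median of 3.81 under the label subcutaneous. The muscle genes Myh4 and Tnnt3 had medians of 5.79 and 5.36 under the label perigonadal.

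Promoters of 7 of the 9 genes, from 250 bases before to 50 after the start, were found in RefSeq on build GRCm38.p6, and those of Orm1 and Hp are not shown. The promoters of Lcn2, Orm2, Saa3 and Saa2 are printed, since the liver and fat results below turn on these genes. Each is 5′ to 3′ on the gene's own strand, and capitals mark a match to the C/EBP motif TTGCNNAA on either strand. They lie at chr2:32387690-32387989 (minus strand) for Lcn2, chr4:63362199-63362498 (plus) for Orm2, chr7:46715627-46715926 (minus) for Saa3 and chr7:46751583-46751882 (plus) for Saa2.
Lcn2: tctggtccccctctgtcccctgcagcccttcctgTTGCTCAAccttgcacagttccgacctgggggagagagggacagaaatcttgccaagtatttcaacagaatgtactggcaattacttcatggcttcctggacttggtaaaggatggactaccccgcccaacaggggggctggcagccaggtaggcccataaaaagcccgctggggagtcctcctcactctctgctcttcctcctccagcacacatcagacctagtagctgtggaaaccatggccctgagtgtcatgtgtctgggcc
Orm2: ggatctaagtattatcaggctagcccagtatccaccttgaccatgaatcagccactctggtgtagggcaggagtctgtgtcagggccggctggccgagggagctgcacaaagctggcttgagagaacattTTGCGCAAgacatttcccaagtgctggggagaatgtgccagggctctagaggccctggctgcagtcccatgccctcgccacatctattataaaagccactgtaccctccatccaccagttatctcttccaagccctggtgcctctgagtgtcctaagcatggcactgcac
Saa3: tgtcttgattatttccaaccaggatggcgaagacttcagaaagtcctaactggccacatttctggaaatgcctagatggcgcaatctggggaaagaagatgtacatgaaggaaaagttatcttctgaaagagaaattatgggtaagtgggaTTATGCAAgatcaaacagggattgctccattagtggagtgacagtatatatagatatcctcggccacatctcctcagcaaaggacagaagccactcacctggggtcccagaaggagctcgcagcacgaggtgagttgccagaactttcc
Saa2: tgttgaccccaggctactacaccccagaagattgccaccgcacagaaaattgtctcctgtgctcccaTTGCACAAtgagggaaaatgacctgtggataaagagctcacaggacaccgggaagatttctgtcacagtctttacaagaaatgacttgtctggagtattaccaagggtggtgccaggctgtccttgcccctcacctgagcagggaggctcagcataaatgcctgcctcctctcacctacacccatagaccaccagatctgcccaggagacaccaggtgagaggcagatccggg

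The C/EBP match stood at bases -216 to -209 in Lcn2, -120 to -113 in Orm2, -99 to -92 in Saa3 and -183 to -176 in Saa2, counted from the start. It also stood in Saa1, at -182 to -175, which made 5 of the 7 promoters, against 10.8% of 32851 promoters of that length. The Saa1 and Saa2 promoters are similar copies with the same letters at the match, so their matches are not independent. The STAT motif TTCNNNGAA was found in 2 of the 7, Apcs (-244 to -236) and Itih4 (-51 to -43), against 8.30% of all. The NF-kB consensus was found in 0 of the 7, against 8.46% of all. No matches of different motifs overlapped, both strands were searched, and a match describes letters in this window only.

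The deposited values are linear intensities whose mean over an array lay between 0.962 and 0.999. The sources used here do not give their normalization, and the spread of values differs between tissues, so levels of 1 gene in different tissues stand side by side and were not tested. Levels of different genes are not comparable on this scale. The highest values of liver arrays lay between 37.8 and 39.3, so Hp and Itih4 sat near the top of the scale in liver.

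Over all 8 days, Saa2, Itih4, Apcs, Orm1, Orm2 and Hp were higher in each liver array than in any fat array, and Saa3 and Lcn2 were not. The share of all genes that part liver from fat in this way was not counted. The separation is therefore not read as a trait of the members. Saa2 had a median of 10.9 in liver (3.52 to 16.7), and its depot medians were 0.0645 in subcutaneous, 0.0714 in mesenteric, 0.0731 in perirenal and 0.0753 in perigonadal. Itih4 had a median of 26.7 in liver (25.5 to 29.3) and of 0.143 to 0.527 in the depots, with no fat array above 1.80. Apcs had a median of 8.46 in liver (7.20 to 13.3) and of 0.0130 to 0.0175 in the depots, where it lay below the filter on low values and was not tested. No array of fat came near the liver levels of these 3 genes.

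The copies Orm1 and Orm2 differed in their spread over tissues. Orm1 had a median of 18.3 in liver (16.5 to 21.0), 10.2 in perirenal, 9.61 in mesenteric, 8.14 in perigonadal and 5.32 in subcutaneous fat. Orm2 had a median of 2.58 in liver (1.95 to 7.25), 0.766 in mesenteric, 0.597 in perirenal, 0.141 in subcutaneous and 0.0811 in perigonadal fat. The depots thus had different orders for the 2 copies. Hp had a median of 29.95 in liver (29.0 to 32.0) and of 15.5 to 21.1 in the depots, again without overlap.

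Saa3 and Lcn2 did not follow that order. Saa3 had a median of 1.84 in liver (0.583 to 2.98), against 3.61 in mesenteric (1.42 to 7.63), 2.38 in perirenal (0.612 to 5.51), 1.17 in subcutaneous and 0.995 in perigonadal fat, and the ranges of all 5 overlapped. Lcn2 had a median of 1.83 in liver (0.980 to 8.31), against 1.77 in mesenteric (0.932 to 7.91), 0.910 in subcutaneous, 0.457 in perirenal and 0.227 in perigonadal fat. Liver and mesenteric Lcn2 were spread over similar ranges. Mesenteric Lcn2 varied with the epididymis markers, as given below, and the part of that tissue in its values was not tested.

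In liver, most of the acute phase genes were higher after 1 day of restriction. At day 1 against day 0, 7 of the 8 measured members were called higher (limma, adjusted p under 0.05 over 13535 genes), while 3.64% of all genes were called in either direction. Lcn2 and Orm2 changed most. The remaining 5 called members changed by 0.60 or less on the log2 scale.

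Lcn2 had intensities of 5.19, 5.92, 7.04, 2.17 and 8.31 in the day 1 mice J15, J20, J60, J7 and J80. The 12 day 0 mice lay between 1.19 and 3.19, with a median of 1.70. Mouse J7 fell within the day 0 range and the other 4 lay above it. The log2 change was 1.40 ± 0.25 (SE), a 2.64-fold rise (limma adjusted p = 0.000416).

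Orm2 had 5.30, 6.10, 6.90, 2.58 and 7.07 in the same 5 mice, against 1.97 to 3.24 (median 2.27) at day 0. Mouse J7 was again inside the day 0 range and the other 4 above it. The log2 change was 1.14 ± 0.17, or 2.21-fold (limma adjusted p = 2.57e-05). Leaving out any 1 mouse kept the day 1 calls of Lcn2 (log2 1.23 to 1.72) and Orm2 (log2 1.04 to 1.40).

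Saa3 had 1.96, 2.79, 2.98, 2.07 and 2.87 at day 1, against 1.43 to 2.48 (median 1.60) at day 0, with 3 mice above the day 0 range. Its log2 change was 0.60 ± 0.16 (limma adjusted p = 0.0235). Without J20, J60 or J80 the call was lost, with adjusted p of 0.0935, 0.117 and 0.0751 in limma. In these bulk samples a change in the number of cells of a type and a change in RNA per cell cannot be told apart.

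Apcs had 10.3, 10.9, 11.7, 8.61 and 13.2 at day 1, against 7.25 to 8.79 at day 0. Its log2 change was 0.37 ± 0.09 (limma adjusted p = 0.00626), and without J80 the adjusted p was 0.0563. Orm1 had 19.1, 20.5, 20.7, 18.3 and 20.6 at day 1, against 17.2 to 18.9 at day 0, with a log2 change of 0.11 ± 0.03 (limma adjusted p = 0.00717). Without J60 or J20 the adjusted p of Orm1 was 0.0746 and 0.0574. In both genes J7 was the lowest of the 5 mice and inside the day 0 range.

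Itih4 had 28.3, 28.8, 28.8, 26.9 and 29.3 at day 1, against 25.5 to 26.7 at day 0, and all 5 day 1 mice lay above the day 0 range. Its log2 change was 0.10 ± 0.02 (limma adjusted p = 0.000151). Hp had 31.8, 31.4, 31.7, 30.1 and 31.7 at day 1, against 29.6 to 30.3 at day 0, with a log2 change of 0.061 ± 0.012 (limma adjusted p = 0.000591). Both small changes lie near the top of the intensity scale.

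Saa2 was the member that was not called at day 1. It had 14.0, 16.7, 13.7, 11.4 and 12.2, against 9.24 to 13.4 (median 10.7) at day 0, so 3 of the 5 lay above the day 0 range. The log2 difference was 0.26 ± 0.14 (limma adjusted p = 0.349). Among J mice alone, the only letter of day 1, the called members were Orm2 (log2 1.14, adjusted p = 0.0137 in limma), Itih4 (0.10, 0.0175), Lcn2 (1.45, 0.0310) and Hp (0.063, 0.0320). The share of all genes called in that smaller fit is not given here.

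**Figure D1:**
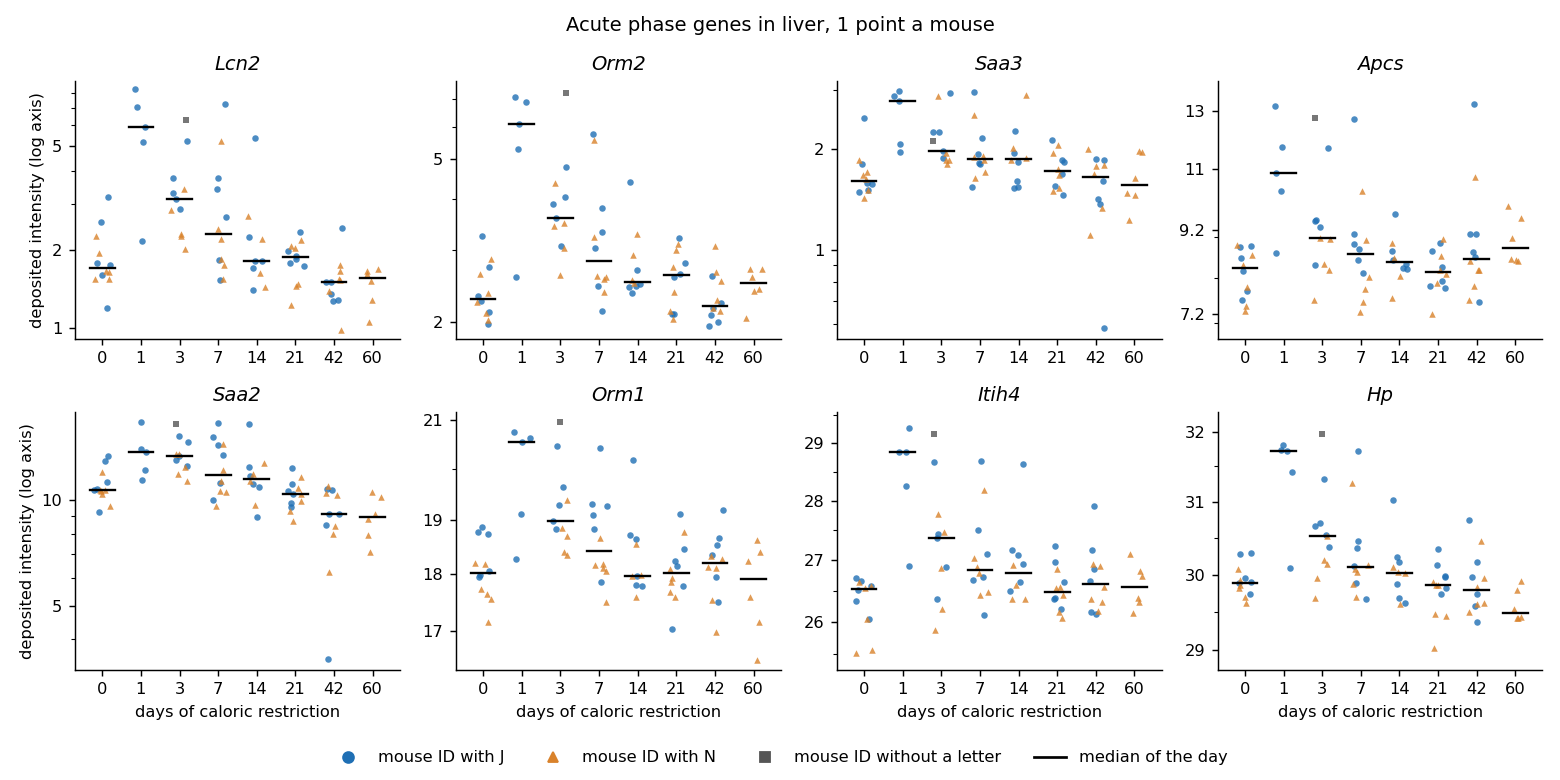
Deposited intensity (log axis) of the 8 measured acute phase genes in liver by day of caloric restriction, with 1 point a mouse, shapes for the ID letter and bars for the median of the day. The Lcn2 and Orm2 points of day 1 lie above the day 0 points except for mouse J7, and single high mice recur at days 7 and 14.

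At day 3 against day 0, 3 members were called higher, beside 4.09% of all genes: Orm2 (log2 0.59 ± 0.13, limma adjusted p = 0.00426), Lcn2 (0.72 ± 0.20, adjusted p = 0.0226) and Orm1 (0.079 ± 0.021, adjusted p = 0.0159). In each, all 10 lettered mice lay above the day 0 mean of their letter. All 8 members passed an unadjusted p under 0.05 in limma on that day. Lcn2 was not called without J23 (adjusted p = 0.0615 in limma). The changes were 0.91 in J mice and 0.53 in N mice for Lcn2, and 0.68 and 0.51 for Orm2, and within a letter neither was called (limma adjusted p from 0.151 to 0.362). Mouse 32, outside the contrast, had the highest day 3 value of Lcn2 (6.30), Orm2 (7.25), Saa2 (16.5), Orm1 (21.0), Apcs (12.7), Itih4 (29.2) and Hp (32.0).

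Single livers stood out at day 7. Against day 0, Orm2 (log2 0.39 ± 0.13, limma adjusted p = 0.0394) and Itih4 (0.040 ± 0.013, adjusted p = 0.0380) were called higher, beside 8.42% of all genes. Leaving out 1 mouse ended the Orm2 call in 11 of 80 fits (adjusted p up to 0.113) and the Itih4 call in 8 (up to 0.103). Mouse J52 had 7.26 for Lcn2, 5.77 for Orm2, 12.7 for Apcs and 16.7 for Saa2, and mouse N15 had 5.25, 5.58, 10.3 and 14.5 for the same genes. The day 7 medians of Lcn2 and Orm2 were 2.29 and 2.81, against 1.70 and 2.27 at day 0.

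At days 14 and 21 against day 0, 0 of the 8 members were called in limma, beside 12.2% and 8.95% of all genes. At an unadjusted p under 0.05, 1 (Itih4) and 0 passed, and without the trend and robust options 0 were called on both days. Mouse J51 of day 14 stood apart, with 5.37 for Lcn2, 4.40 for Orm2, 20.2 for Orm1, 31.0 for Hp and 28.6 for Itih4. The medians of that day were 1.81 for Lcn2 and 2.51 for Orm2.

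At day 42 against day 0, Saa2 alone was called, and it was lower, beside 21.3% of all genes. The 12 day 42 livers lay between 3.52 and 10.99, with a median of 9.14, against 9.24 to 13.4 at day 0, and 7 of them were below the day 0 range. The log2 change was -0.37 ± 0.10 (limma adjusted p = 0.00655), with 11 of 12 mice below the day 0 mean of their letter. Leaving out any 1 mouse kept the call, with a log2 change of -0.41 to -0.25. In fits on J mice alone or N mice alone, which use fewer mice, Saa2 was not called at day 42. At day 60 against day 0, 0 members were called in limma, beside 20% of all genes. At an unadjusted p under 0.05, 2 passed: Saa2 (log2 -0.27 ± 0.13, lower in 6 of 6 mice) and Apcs (0.19 ± 0.08, higher in 6 of 6).

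At day 42 against day 3, 6 members were lower and 0 higher, beside 12.9% of all genes: Lcn2 (log2 -1.02 ± 0.20, limma adjusted p = 0.000256), Orm2 (-0.64 ± 0.13), Saa2 (-0.62 ± 0.11), Saa3 (-0.54 ± 0.13), Orm1 (-0.074 ± 0.021) and Hp (-0.026 ± 0.0090). All 12 day 42 mice lay below the day 3 mean of their letter for all of these but Hp (10 of 12). The call of Hp (adjusted p = 0.0482) was lost in 29 of the 80 fits that each left out 1 mouse. Among J mice alone 1 member was called and among N mice alone 2, and the shares of all genes called in those smaller fits are not given here.

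In 2 livers of day 42 the serum amyloid A genes went one way and Apcs the other. Mouse J4 had the lowest values of that day for Saa2 (3.52) and Saa3 (0.583) and the highest for Apcs (13.3), Hp (30.7), Itih4 (27.9), Orm1 (19.2) and Lcn2 (2.43). Mouse N70 had 6.22 for Saa2, 1.10 for Saa3 and 10.7 for Apcs. The medians of the day were 9.14 for Saa2, 1.65 for Saa3 and 8.45 for Apcs.

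No member was called in fat at day 1 or day 3. At days 1 and 3 against day 0, 0 of 28 tests (7 members in 4 depots) were called in limma. At an unadjusted p under 0.05, 0 passed at day 1 and 5 at day 3, and without the trend and robust options 0 were called on either day. The share of all genes called at day 1 was 0% in subcutaneous, 0.0445% in mesenteric, 0.0366% in perirenal and 0.364% in perigonadal fat, and at day 3 it was 0%, 0.519%, 0.022% and 1.55%. In subcutaneous fat 349 and 283 genes passed an unadjusted p of 0.05 at days 1 and 3. Later the called members were all lower: 5, 5, 7, 13 and 16 of 28 tests at days 7, 14, 21, 42 and 60. An alternative chosen after the data were seen left out arrays whose summed markers of another tissue lay over 3 times from the median. Under it the counts were 2, 3, 9, 10 and 13, and the shares of all genes called are not given here. It leaves out arrays below the median as well as above it, so the arrays kept are not free of other tissue.

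These counts stand beside the share of all genes called in the same depot. In subcutaneous fat it was 0%, 0.0669%, 0.156%, 4.04% and 9.72% on these 5 days, and 0, 0, 0, 2 and 3 of 7 members were called. At an unadjusted p under 0.05, 391 genes passed there at day 7, 2 of them members. In mesenteric fat it was 3.83%, 4.35%, 16.5%, 32.1% and 26.1% on those days, and 3, 2, 2, 5 and 5 members were called. In perirenal fat it was 0.0953%, 0.586%, 3.34%, 21.9% and 20.1%, with 1, 1, 3, 3 and 6 members. In perigonadal fat it was 9.55%, 13.4%, 19.6%, 26.9% and 21.7%, with 1, 2, 2, 3 and 2 members.

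Saa3 fell most, in 3 depots and from day 7 on. In mesenteric fat its medians were 5.92, 5.99, 5.17, 3.73, 3.18, 2.37, 2.19 and 2.05 at days 0, 1, 3, 7, 14, 21, 42 and 60. The day 0 mice lay between 4.995 and 7.17, and each mouse of days 7 to 60 lay below that range, the highest at 4.93. The log2 change was -0.76 ± 0.14 at day 7 (limma adjusted p = 0.000384), -1.48 ± 0.14 at day 42 (adjusted p = 3.21e-12) and -1.62 ± 0.17 at day 60 (adjusted p = 1.86e-10).

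In perirenal fat the Saa3 medians were 3.99, 4.26, 3.89, 2.45, 2.21, 1.74, 1.31 and 1.18 over the same days. The day 42 mice lay between 1.03 and 3.60, against 3.45 to 5.51 at day 0, and 11 of 12 were below the day 0 range. The log2 change was -1.45 ± 0.16 at day 42 (limma adjusted p = 7.88e-10) and -2.003 ± 0.20 at day 60 (adjusted p = 3.81e-11), where all 6 mice were below the day 0 range. The day 7 change of -0.70 ± 0.16 was near the threshold (adjusted p = 0.0495) and lost its call in 45 of the 80 fits that each left out 1 mouse.

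In perigonadal fat the Saa3 medians were 1.84, 1.99, 1.82, 0.995, 0.765, 0.766, 0.528 and 0.525. The day 42 mice lay between 0.293 and 1.77, against 1.12 to 2.48 at day 0, and 9 of 10 were below the day 0 range. The log2 change was -1.74 ± 0.22 at day 42 (limma adjusted p = 8.82e-09) and -1.87 ± 0.27 at day 60 (adjusted p = 2.32e-07). In subcutaneous fat Saa3 lay between 0.610 and 1.80 at day 42, against 0.972 to 1.96 at day 0, and the groups overlapped. There the log2 difference was -0.51 ± 0.20 and was not called (limma adjusted p = 0.151).

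Within the letters the day 42 change of Saa3 was -1.46 in J and -1.50 in N mice in mesenteric fat, -1.39 and -1.51 in perirenal fat, and -1.52 and -1.97 in perigonadal fat, each called. In subcutaneous fat it was -0.52 in J and -0.50 in N mice and was called in neither. Leaving out any 1 mouse gave -1.56 to -1.42 in mesenteric, -1.56 to -1.39 in perirenal and -1.92 to -1.64 in perigonadal fat. Without the arrays far from the median in markers of other tissues it was -1.38 ± 0.15, -1.41 ± 0.17 and -1.59 ± 0.29 for Saa3 in the same order, each called. Under that setting the Saa3 calls of perirenal fat at day 7 (adjusted p = 0.236) and of perigonadal fat at days 7 and 14 (0.249 and 0.0929) were lost in limma.

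High Saa3 recurred in the same mice across depots. Mouse N10 had the highest day 42 value in mesenteric (3.93), perirenal (3.60) and perigonadal fat (1.77), where the next highest mice had 3.10, 2.25 and 0.688. Mouse N80 had the highest day 21 value in the same depots (4.93, 3.69 and 2.15), and the next highest mice had 3.79, 2.93 and 1.53. In subcutaneous fat N10 had 1.09 and N80 1.02, and in liver they had 1.68 and 1.75, close to the medians of their days.

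**Figure D2:**
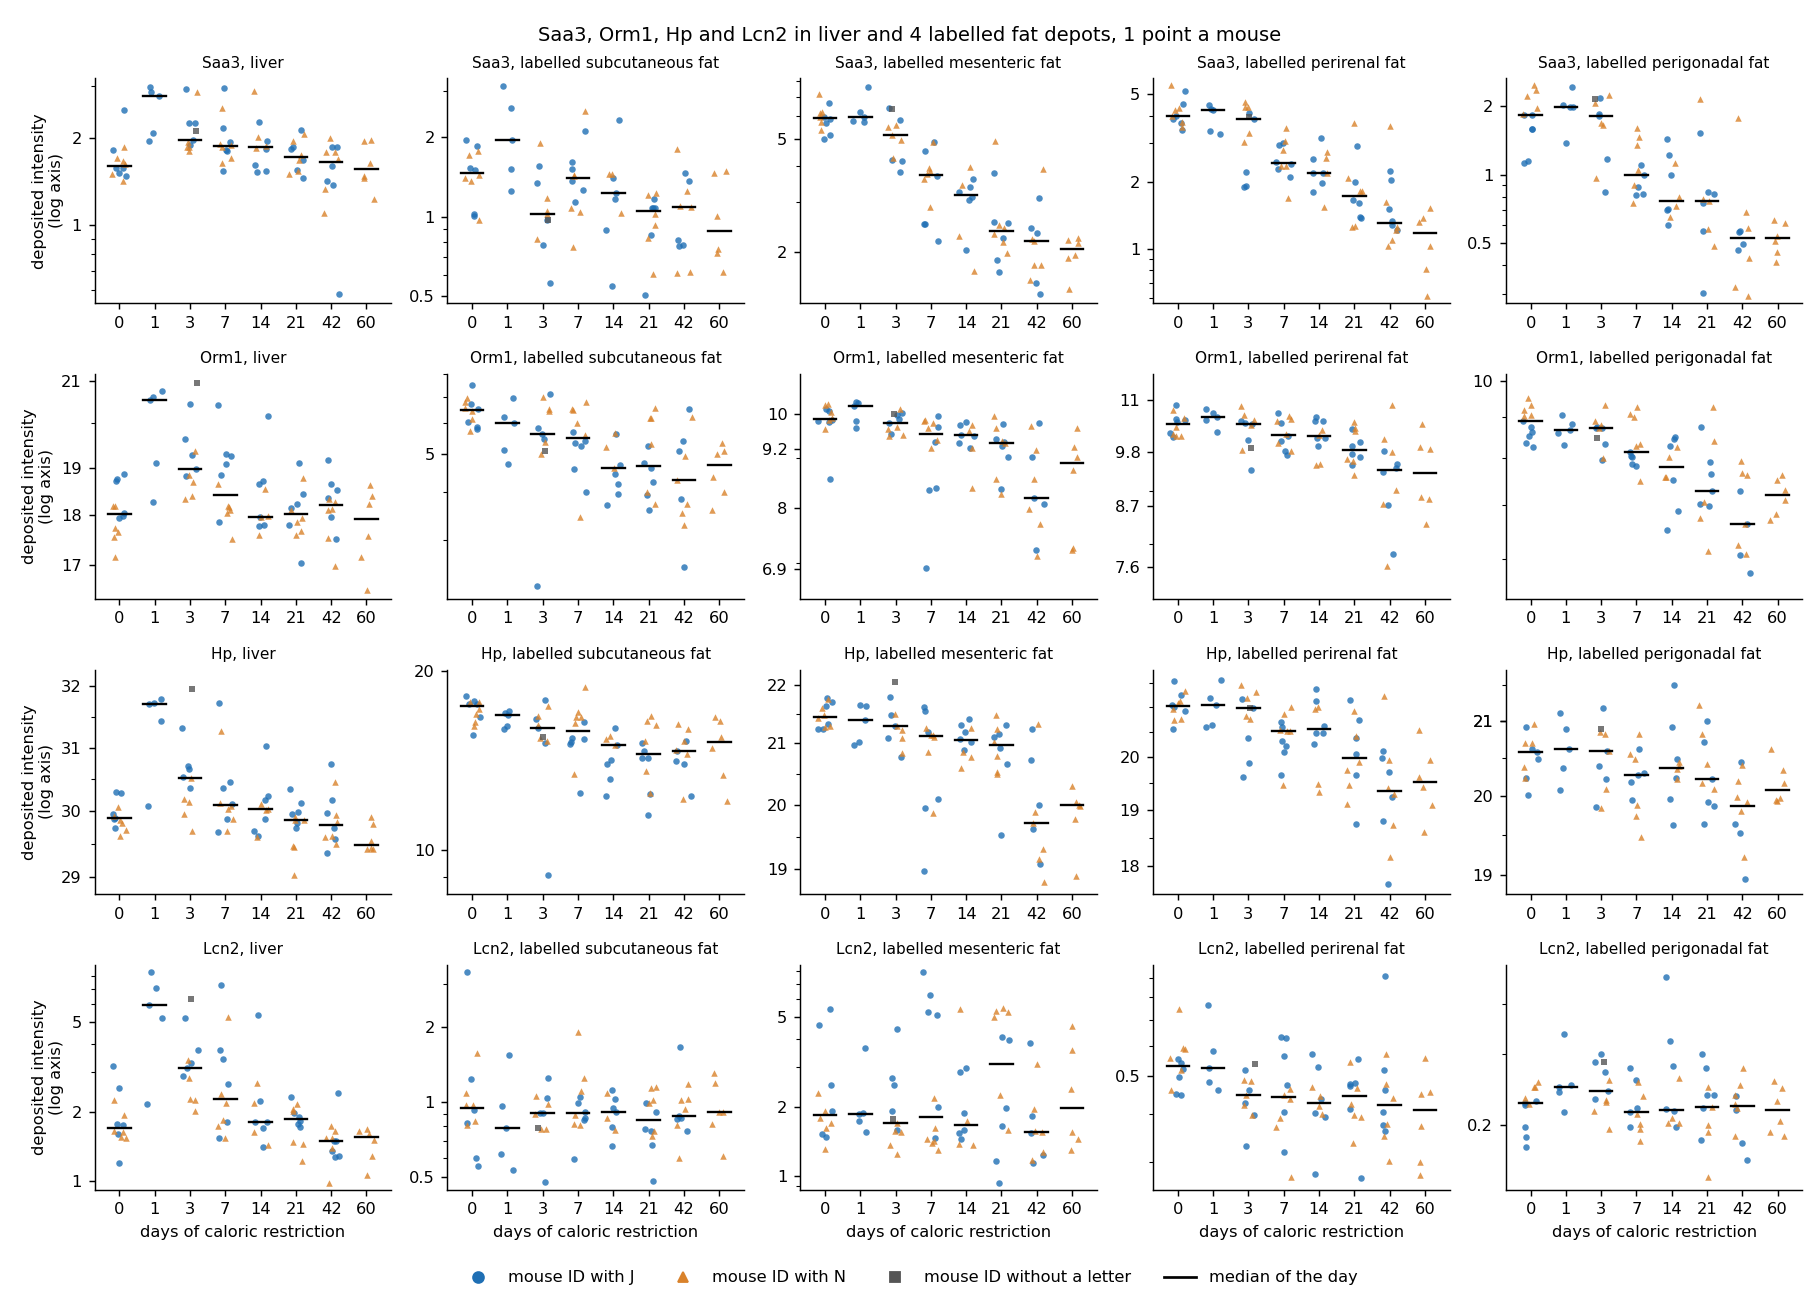
Deposited intensity (log axes) of Saa3, Orm1, Hp and Lcn2 in liver and the 4 labelled depots by day of caloric restriction, with 1 point a mouse and bars for the median of the day. The Saa3 points of mesenteric, perirenal and perigonadal fat lie lower from day 7, with mouse N10 high at day 42, and the 1 call of Lcn2 in fat is that of perirenal fat at day 60, where it was lower.

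Orm1 was lower at day 42 in all 4 depots. In perigonadal fat it lay between 5.75 and 7.94 (median 6.62) at day 42, against 8.28 to 9.53 (median 8.92) at day 0, and the groups did not overlap (log2 -0.40 ± 0.05, limma adjusted p = 2.66e-09). In subcutaneous fat it had a median of 4.28 (2.56 to 6.52) at day 42, against 6.47 (5.71 to 7.48) at day 0, with the widest spread of the depots (log2 -0.57 ± 0.13, adjusted p = 0.00287). The log2 changes were -0.24 ± 0.05 in mesenteric and -0.18 ± 0.03 in perirenal fat, and 10 of 11 and 11 of 12 mice were lower. At day 60 Orm1 was called lower in all 4 depots as well (log2 -0.57, -0.23, -0.16 and -0.34 in subcutaneous, mesenteric, perirenal and perigonadal fat). In perigonadal fat it was already lower at days 14 (-0.19 ± 0.05) and 21 (-0.24 ± 0.05). Without the arrays far from the median in markers of other tissues, the calls of all members against day 0 fell from 5 to 1 in subcutaneous fat. Its Orm1 calls of days 42 and 60 thus did not both hold. In perigonadal fat the calls of all members fell from 10 to 6. The shares of all genes called in these smaller fits are not given here.

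Hp was lower at day 42 in all 4 depots, by small amounts. The log2 changes were -0.25 ± 0.06 in subcutaneous, -0.11 ± 0.02 in mesenteric, -0.12 ± 0.02 in perirenal and -0.053 ± 0.014 in perigonadal fat. In mesenteric fat Hp lay between 18.8 and 21.3 (median 19.7) at day 42, against 21.2 to 21.8 (median 21.5) at day 0, and 9 of 11 mice were below the day 0 range. In liver the log2 difference of Hp at day 42 was -0.0021 ± 0.0086 and was not called. Without the arrays far from the median in markers of other tissues, Hp was not called in subcutaneous (-0.19 ± 0.05, limma adjusted p = 0.0525) and perigonadal fat (-0.033 ± 0.019, adjusted p = 0.251). Hp was also called lower in mesenteric fat at day 7 (-0.052 ± 0.016, limma adjusted p = 0.0476, lost in 33 of 79 fits that left out 1 mouse) and in perirenal fat at day 21 (-0.071 ± 0.019, lost without J10, limma adjusted p = 0.0643, and just past the threshold without N11).

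The other members were less regular in fat. Saa2, whose mesenteric level was 0.128 at most, was lower there from day 7 (log2 -0.47 ± 0.09, limma adjusted p = 0.00101) to day 60 (-0.46 ± 0.12), and in perirenal fat at days 21 (-0.25 ± 0.06, limma adjusted p = 0.0518 without J53) and 60 (-0.34 ± 0.08). Orm2 was lower at day 60 in subcutaneous (-0.68 ± 0.19), mesenteric (-0.44 ± 0.14) and perirenal fat (-0.65 ± 0.15), and the mesenteric call was lost without N22 (-0.33, limma adjusted p = 0.0938) or N43 (-0.33, 0.0862). Its mesenteric call at day 42 (-0.28 ± 0.11, limma adjusted p = 0.0454) was lost in 14 of 79 fits that left out 1 mouse. Lcn2 was called once, lower in perirenal fat at day 60 (-0.43 ± 0.16, limma adjusted p = 0.0448, lost in 10 of 80 fits that left out 1 mouse), and Itih4 on no day. Below the threshold, 6 of 12, 7 of 10, 6 of 12 and 7 of 12 perirenal mice had Lcn2 under the day 0 range at days 7, 14, 21 and 42 (log2 -0.33 to -0.27).

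The 3 day 60 calls in subcutaneous fat (Orm1, Orm2 and Hp) rested on mouse N82, which had the lowest day 60 values there, 3.58 for Orm1, 0.0854 for Orm2 and 12.1 for Hp. Without it the limma adjusted p was 0.0562 for Orm1, 0.0617 for Orm2 and 0.139 for Hp, and without N62 it was 0.0711 for Hp. At day 42 against day 3, 0 members were called in subcutaneous fat (2 at an unadjusted p under 0.05 and 0 without the trend and robust options), 4 in mesenteric, 4 in perirenal and 3 in perigonadal fat, all lower. The share of all genes called was 1.41%, 23.4%, 20.8% and 22.3% in the same order. Saa3 changed by -1.22 ± 0.15, -1.08 ± 0.17 and -1.56 ± 0.23 on the log2 scale in the last 3 depots.

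**Figure D3:**
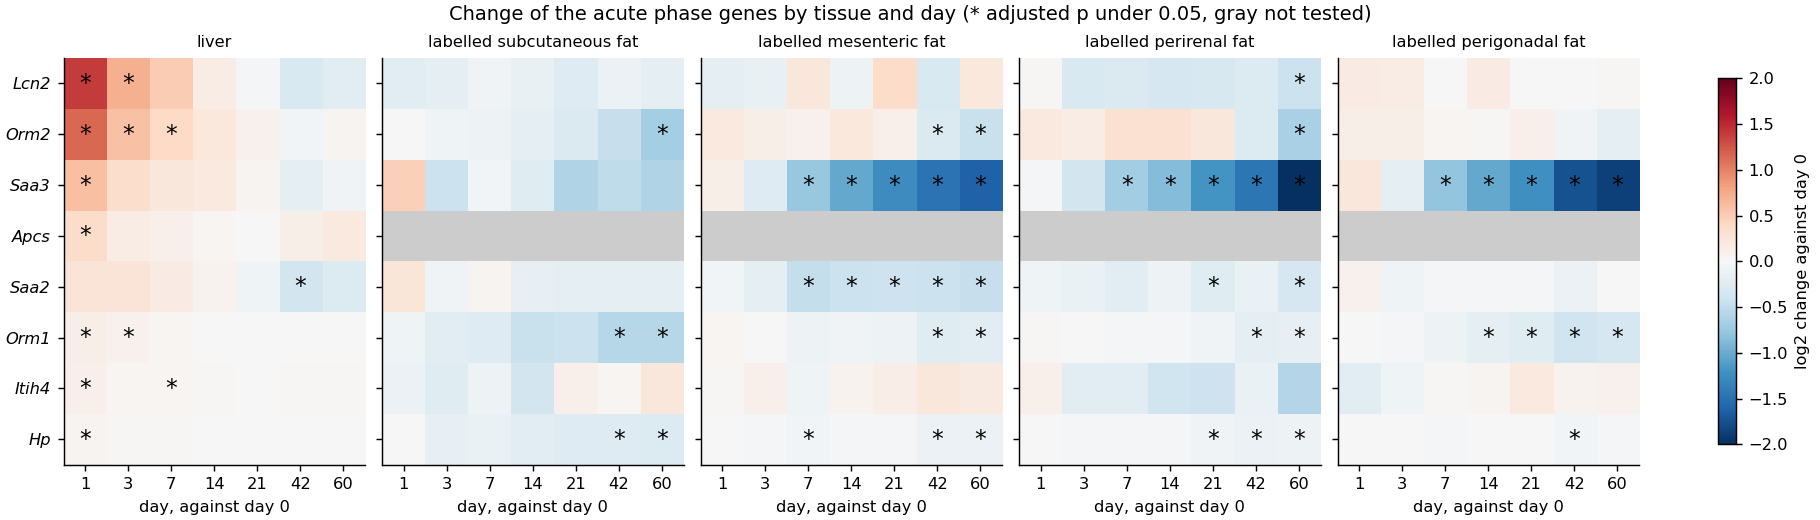
Log2 change against day 0 (colour) of each acute phase gene by tissue and day, with an asterisk for a limma adjusted p under 0.05 and gray for Apcs in the depots, which was not tested. The calls of liver sit at days 1 to 7 and are higher but for Saa2 at day 42, and those of the depots sit at day 7 and later and are lower.

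The changes in liver and in a depot were set against each other in 1 fit of both tissues, as the liver change minus the depot change. The differences share the liver mice and the day 0 mice, and Apcs, below the filter in each depot, was left out. The day 1 comparison was chosen after the data were seen. At day 1, 6 of 28 differences were called, all of them higher in liver, while the share of all genes called was 0.0348% against subcutaneous, 0.383% against mesenteric, 0.39% against perirenal and 0.498% against perigonadal fat.

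Lcn2 rose by 1.40 in liver at day 1 and its depot differences lay between -0.23 and 0.17, none called. Liver minus depot was 1.63 ± 0.35 against subcutaneous (limma adjusted p = 0.0381), 1.38 ± 0.31 against perirenal (0.0135) and 1.23 ± 0.29 against perigonadal fat (0.0180). Against mesenteric fat it was 1.59 ± 0.47 and was not called (adjusted p = 0.113). Orm2 gave 0.95 ± 0.23 against mesenteric (limma adjusted p = 0.0288), 0.95 ± 0.23 against perirenal (0.0311) and 1.02 ± 0.23 against perigonadal fat (0.0118). Against subcutaneous fat it gave 1.14 ± 0.26 and was not called (adjusted p = 0.0548). With the animal as a block, on pairs of tissues from the same mouse, Orm2 was called against subcutaneous (adjusted p = 0.0311) and not against perirenal fat (0.0555).

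At day 3, 1 of 28 differences was called, Lcn2 against perirenal fat (1.02 ± 0.24, limma adjusted p = 0.0238), beside 0.0348%, 1.63%, 0.425% and 2.93% of all genes against subcutaneous, mesenteric, perirenal and perigonadal fat. With the animal as a block 2 were called, the other being Saa2 against mesenteric fat (0.46 ± 0.13, adjusted p = 0.0441).

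At day 42, 11 of 28 differences were called, all of them positive, the depot change being the more negative one, beside 3.91%, 22.6%, 17.5% and 19.6% of all genes in the same order. Saa3 gave 1.29 ± 0.19 against mesenteric (limma adjusted p = 2.9e-08), 1.26 ± 0.20 against perirenal (1.05e-06) and 1.56 ± 0.25 against perigonadal fat (4.87e-07), with a liver change of -0.18 ± 0.12 that was not called. Against subcutaneous fat it gave 0.33 ± 0.23 (adjusted p = 0.558). Orm1 gave 0.58, 0.24, 0.18 and 0.41 and Hp 0.25, 0.11, 0.12 and 0.051 against subcutaneous, mesenteric, perirenal and perigonadal fat, each called. With the animal as a block, Hp against perigonadal fat was not called (adjusted p = 0.0790). Saa2, called lower in liver at day 42, gave -0.25 to 0.056 and was called against no depot.

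**Figure D4:**
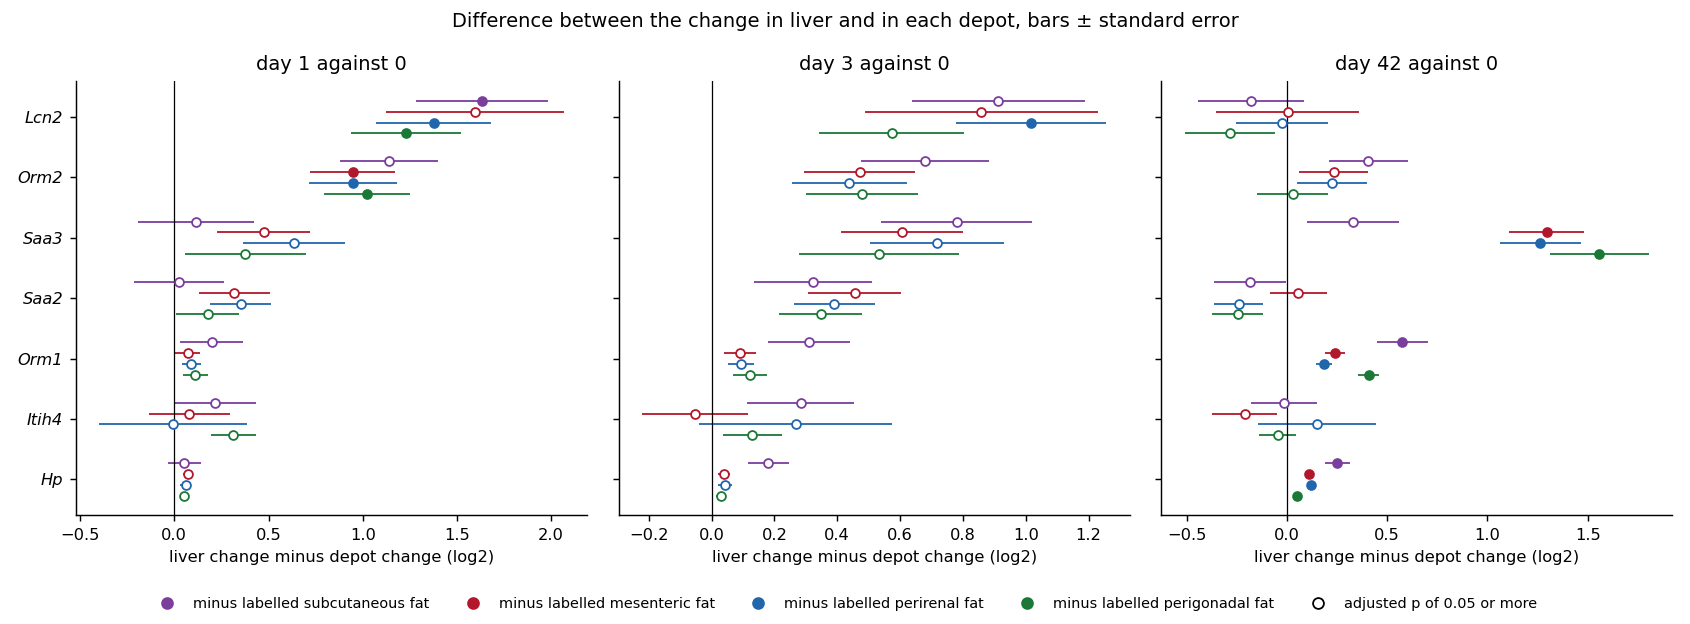
Liver change minus depot change (log2, bars ± SE) of the 7 acute phase genes tested in the depots at days 1, 3 and 42 against day 0, with filled points for a limma adjusted p under 0.05. Lcn2 and Orm2 stand apart at day 1, and Saa3, Orm1 and Hp at day 42.

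Other positive acute phase genes were counted from a list of 23, of which 19 had a probe set. The shares of all genes called in liver, against which the counts of this and the other lists are read, were 3.64% at day 1, 4.09% at day 3 and 21.3% at day 42. In liver at day 1, 5 of 19 tested were called higher and 0 lower: Lrg1 (a leucine-rich glycoprotein, log2 0.24 ± 0.06), Itih3 (0.17 ± 0.03), Serpina3n (a protease inhibitor, 0.17 ± 0.05) and Hpx (haemopexin, 0.11 ± 0.02) changed most. The median of the list was 0.045, against -0.0051 for all genes. At day 3, 3 were called higher (Itih3, Cfb and Hpx). At day 42, 4 of 19 were called, a share near that of all genes: 3 were higher by 0.057 or less and Il1rn, the interleukin 1 receptor antagonist, was lower (-0.65 ± 0.09).

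In fat at day 42 the same list was mostly lower where it was called: 4 lower and 0 higher of 16 in subcutaneous, 5 and 1 of 15 in mesenteric, 6 and 1 of 13 in perirenal, and 6 and 2 of 14 in perigonadal fat. The shares of all genes called in these depots were 4.04%, 32.1%, 21.9% and 26.9%, and the mesenteric count of 6 of 15 lies near its share. Lbp (lipopolysaccharide binding protein) was lower by -0.78 ± 0.12, -0.50 ± 0.06, -0.70 ± 0.10 and -0.67 ± 0.08 in that order. Lrg1 was lower by -0.46 ± 0.08, -0.65 ± 0.07, -0.66 ± 0.07 and -0.31 ± 0.04. Serpina3n changed by -0.46 ± 0.08, -0.45 ± 0.06, -0.48 ± 0.07 and -0.26 ± 0.04. The list's medians were -0.12, -0.046, -0.24 and -0.092, against 0.0056, 0.0070, 0.014 and 0.0046 for all genes.

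Negative acute phase genes, which the liver makes less of in inflammation, were called in 0 of 9 tests at day 1 in liver by limma (0 at an unadjusted p under 0.05). At day 42 in liver 1 was higher (Ahsg, fetuin A, log2 0.022). Of 24 tested cytokines, receptors and transcription factors that induce the acute phase, liver had 1 called at day 1, Cebpg (higher, 0.11 ± 0.03). At day 42 it had Cebpg higher (0.11 ± 0.02), and Cebpd (-0.21 ± 0.07) and Nfkb2 (-0.18 ± 0.03) lower. Socs3, the feedback inhibitor of STAT3 signalling, was higher at day 42 in mesenteric (0.31 ± 0.09), perirenal (0.32 ± 0.08) and perigonadal fat (0.37 ± 0.10), where Saa3 was lower. In total 5 of this list were higher and 3 lower of 24 in mesenteric, 3 and 1 of 24 in perirenal, 6 and 0 of 25 in perigonadal, and 0 of 24 were called in subcutaneous fat (0 at an unadjusted p under 0.05). Beside the 32.1%, 21.9% and 26.9% of all genes called, the counts of 8 of 24, 4 of 24 and 6 of 25 lie near the background.

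Among 13 receptors and partners of the member proteins, Hpx was the 1 called in liver at day 1, and Cd36 (-0.21 ± 0.07) at day 42. In fat at day 42, Mmp9, the protease that lipocalin 2 binds, was higher in mesenteric (0.40 ± 0.12) and perigonadal fat (0.52 ± 0.12). Hmox1, the enzyme that breaks down haem, was lower in perirenal (-0.52 ± 0.13) and perigonadal fat (-0.41 ± 0.15). The shares of all genes called were 32.1% in mesenteric, 21.9% in perirenal and 26.9% in perigonadal fat. The calls over the whole list in fat are not counted here, so these 2 genes are not read as a trait of the list.

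Markers of leukocytes were read beside these results, and their part in them was not tested. In liver the summed neutrophil markers had a median of 0.947 (0.873 to 1.25) at day 1, against 0.964 (0.856 to 2.32) at day 0. The summed macrophage markers had 14.3 (13.7 to 15.7) at day 1, against 13.02 (11.6 to 14.6) at day 0, and 1 of 8 was called higher, C1qa (0.22 ± 0.06). In mesenteric fat 5 of 8 macrophage markers were lower at day 42, by 0.28 or less on the log2 scale and beside 32.1% of all genes called, and their sum was 44.2 (37.1 to 48.6), against 47.5 (42.2 to 51.7) at day 0. In perirenal fat 2 of 8 were lower, near the 21.9% of all genes (sum 41.5, 30.1 to 48.8, against 43.8, 36.7 to 50.2, at day 0) and in perigonadal fat 1, Itgax (sum 26.5, 22.4 to 30.9, against 26.2, 19.3 to 30.4).

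S100a8, a calcium-binding protein of neutrophils and macrophages, was lower at day 42 in mesenteric (-1.23 ± 0.13), perirenal (-0.91 ± 0.12) and perigonadal fat (-0.81 ± 0.14), the depots where Saa3 fell. It was the 1 neutrophil marker called in each, of 5, 6 and 6 tested, beside 32.1%, 21.9% and 26.9% of all genes. The summed neutrophil markers were 1.98 (1.31 to 2.33) at day 42, against 2.79 (2.42 to 3.92) at day 0, in mesenteric fat, 1.62 (1.32 to 2.63) against 2.12 (1.81 to 3.36) in perirenal and 1.33 (0.944 to 1.69) against 1.63 (1.22 to 2.71) in perigonadal fat. Mpo, another gene of the neutrophil list, had medians of 0.0207 to 0.0291 in the 5 tissues and lay below the filter on low values. The number of neutrophils is not read from it.

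The members also varied together from mouse to mouse within a day. Deviations of each liver from the fitted mean of its day and letter were correlated over 79 mice for 28 pairs (permutation tests, p adjusted over the pairs), and 25 pairs were positive and 21 passed an adjusted p of 0.05. The 21 include the negative pair of Saa3 with Apcs, given below. The median Pearson r was 0.49 and the range -0.24 to 0.86. The highest was Lcn2 with Orm2 (r = 0.86, rho = 0.78, permutation p = 1e-05 for both, the smallest that 100000 resamples give; adjusted p = 2e-05 and 2.33e-05). It was 0.81 without the 2 mice farthest from the median, 0.87 in J mice and 0.83 in N mice. Each pair among Lcn2, Orm2, Hp, Itih4 and Apcs had r between 0.47 and 0.86.

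Saa2 and Saa3 had r = 0.78 and rho = 0.72 with each other (permutation p = 1e-05 for both, adjusted p = 2e-05 and 2.33e-05), and 0.67 without the 2 farthest mice. With Orm2 and Lcn2, Saa2 had r of 0.50 and 0.44 (rho 0.61 and 0.63), and with Hp and Itih4 0.14 and 0.11 (rho 0.23 and 0.21). Saa2 with Apcs had r = -0.17 and rho = 0.040 (permutation p = 0.128 and 0.723). Saa3 with Apcs had r = -0.24 and rho = -0.044 (permutation p = 0.0325 and 0.697, adjusted 0.0433 and 0.723). It had r = -0.031 without the 2 mice farthest in Saa3, J4 and J25. Mouse J4 deviated by -1.32 in Saa3 and 0.55 in Apcs, and J25 by 0.62 and -0.029. Orm1 went with Orm2 at r = 0.56, which was 0.79 in J mice and 0.14 in N mice.

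**Figure D5:**
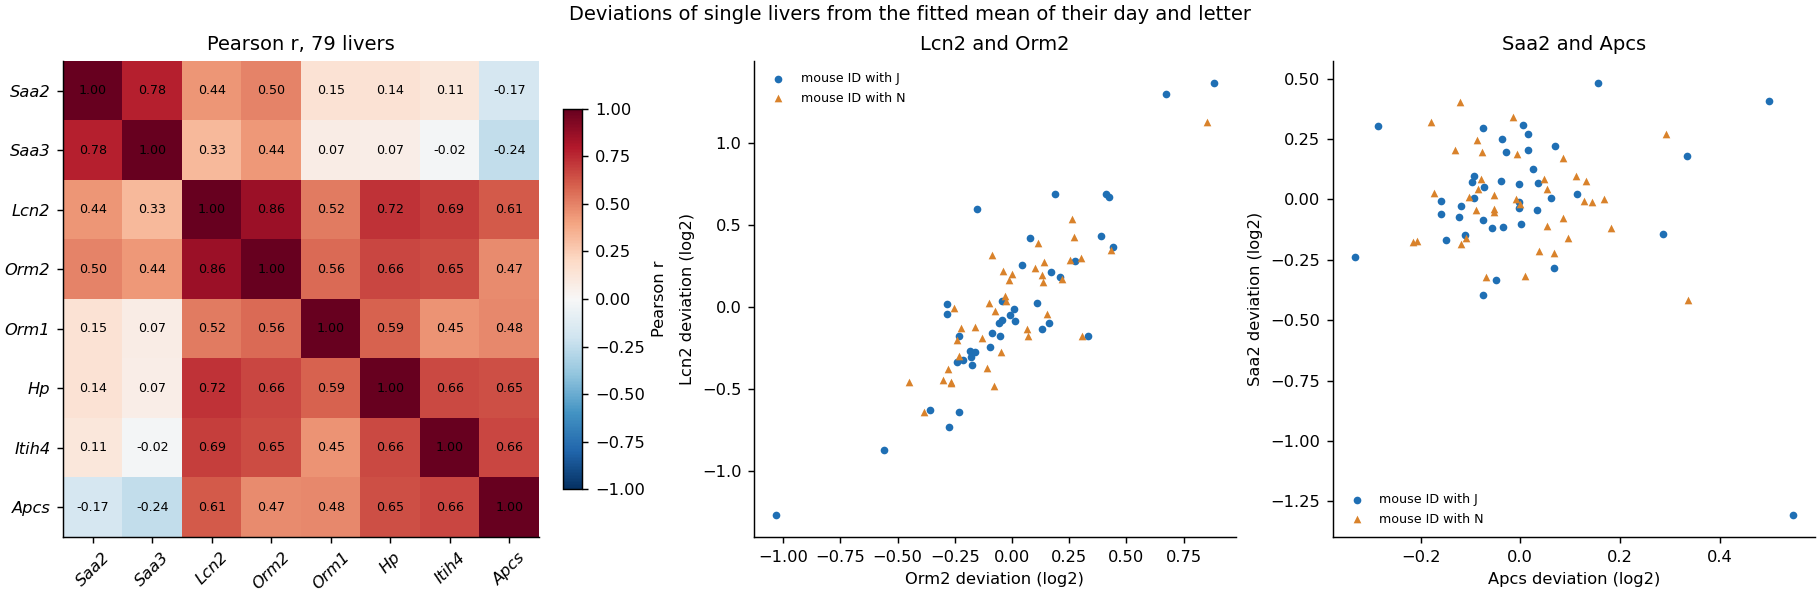
Pearson r between deviations of 79 lettered livers from the fitted mean of their day and letter (left), and the deviations in log2 of Lcn2 against Orm2 (middle) and Saa2 against Apcs (right), with 1 point a mouse. Lcn2 and Orm2 lie along a line, and the lowest Saa2 point is mouse J4 at the highest Apcs deviation.

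In the depots, Orm1 and Orm2 moved together in all 4, with r of 0.77 in subcutaneous, 0.81 in mesenteric, 0.76 in perirenal and 0.60 in perigonadal fat (rho 0.86, 0.69, 0.71 and 0.55). Saa3 went with Hp at r of 0.57, 0.76, 0.61 and 0.52 in the same order (rho 0.54, 0.75, 0.58 and 0.46). The adjusted permutation p of these 8 relations lay between 3.5e-05 and 4.2e-05. Lcn2 in mesenteric fat ran against Orm2 (r = -0.56, rho = -0.56), Orm1 (r = -0.53, rho = -0.51) and Saa3 (r = -0.33, rho = -0.33; adjusted permutation p = 0.00663), and with the epididymis markers (r = 0.60, rho = 0.56). In mesenteric fat Itih4 went with the hepatocyte markers (r = 0.85, rho = 0.74), as in perigonadal fat (r = 0.82, rho = 0.63). Saa3 went with the macrophage markers at r of 0.46 in mesenteric, 0.53 in perirenal and 0.24 in perigonadal fat (rho 0.50, 0.58 and 0.26). The part of these other tissues and cells in the members' values was not tested.

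The same gene was then compared between tissues of the same mouse, with letter and day removed. Between liver and a depot, 4 of 28 relations passed an adjusted p of 0.05 by Pearson and 0 by Spearman (permutation tests), those of Lcn2 with perirenal (r = 0.34, rho = 0.26) and subcutaneous fat (r = 0.31, rho = 0.30) and of Itih4 (r = 0.32, rho = 0.27) and Hp (r = -0.34, rho = -0.31) with perirenal fat. The relation of Hp was negative. For Saa3 these r lay between -0.17 and 0.012. Between 2 depots, 13 of 42 relations passed by Pearson and 15 by Spearman; these were chosen after the data were seen. Saa3 gave r = 0.59 and rho = 0.52 between mesenteric and perirenal fat (n = 78, adjusted permutation p = 0.00014 and 0.00042). It gave r = 0.53 and rho = 0.35 between mesenteric and perigonadal fat and 0.50 and 0.30 between perirenal and perigonadal fat, and without the 2 farthest mice these r were 0.48, 0.37 and 0.33. Lcn2, at r of -0.038 to 0.17, passed between no 2 depots.

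The genes most like each member were those with the highest Pearson r of the same deviations over all arrays of a tissue, members left out. In liver, Lcn2 was most like Lrg1 (0.77), Prg4 (0.77) and Serpina3n (0.73), and Orm2 like Prg4 (0.75), Chil1 (0.71) and Lrg1 (0.66). Apcs was most like Fgl1 (0.82), Prtn3 (0.70) and Itih3 (0.67), and Itih4 like Prg4 (0.81), Serpina3n (0.78) and Fgl1 (0.72). Hp was most like Lrg1 (0.75), Itih3 (0.73) and Fgl1 (0.69), and Orm1 like Fga (0.71), Cpb2 (0.70) and Hpx (0.65). The serum amyloid A genes had other neighbours: Saa2 was most like Saa4 (0.70), Fitm1 (0.65) and Rmdn3 (0.65), and Saa3 like Cxcl9 (0.75), Cxcl10 (0.73) and Ubd (0.72).

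In fat the nearest genes differed by depot. Saa3 was most like S100a8 (0.75), Lrg1 (0.72) and Cenpa (0.70) in mesenteric fat, and like Lrg1 (0.73), Serpina3n (0.72) and Wfdc21 (0.71) in perirenal fat. In perigonadal fat its nearest were Tph2 (0.85), Pla2g2e (0.83) and Poln (0.78), and in subcutaneous fat Prg4 (0.75), Alox15 (0.72) and F5 (0.68). Hp was most like Serpina3n in mesenteric (0.83), perirenal (0.86) and perigonadal fat (0.72), and like Serpina3c (0.86) in subcutaneous fat. Orm1 was most like Mtarc1 in subcutaneous and mesenteric fat (0.90 in both), Hfe (0.80) in perirenal and Slc13a4 (0.82) in perigonadal fat. Lcn2 was most like Plet1, Calml3 and D630039A03Rik (0.94 each) in mesenteric fat, Wdr34 (0.81) in subcutaneous, Wfdc18 (0.58) in perigonadal and Gys2 (0.56) in perirenal fat.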

How the data were processed

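Total RNA of liver and 4 labelled fat depots was biotin-labelled and hybridised to Affymetrix arrays, per the labels' protocols. The deposited table gives 1 linear intensity per probe set and array. The sources used here do not give how the authors summarised and normalized these intensities. Replicates are separate animals by their ID in the labels, and their number limits the precision. A symbol in the probe-to-gene table was given to 25508 of 32640 probe sets, 7132 had none, and 4066 older symbols were updated.

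For each tissue, 1 probe set per gene (the highest mean) above the 25th percentile of means was taken as log2 of the intensity, with no offset. Limma 3.58.1 in R 4.3.3 was fitted on day and ID letter with the trend and robust options, and p-values were adjusted by Benjamini-Hochberg over all genes tested in a tissue and contrast. A call is an adjusted p under 0.05, an error is the standard error, and all day contrasts share the day 0 mice. Liver minus depot was fitted on both tissues together, and a member below the filter in the depot is not reported from that fit. Liver and depot arrays of 1 mouse are paired by the animal ID, and a fit with the animal as a block was the alternative. Correlations used deviations from the fitted mean of day and letter, with 100000 resamples in numpy 2.4.6, adjusted within each tissue or kind of relation. Ranks were taken in scipy 1.17.1.

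The members and gene lists were chosen with earlier results of these data known. The genes named are the members, the called genes of the lists with the largest changes, and the 3 genes most like each member in a tissue. Alternatives covered the letter, the filter, an offset of 0.1, quantile normalization, all probe sets, the options of limma, a hepatocyte covariate and each mouse left out. The day 1 difference between tissues, the relations between depots and the fits without arrays far from the median in markers of other tissues were added after the data were seen. The functions were tested on simulated data.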

Additional observations from a re-analysis of the deposited data

Results flagged for a closer look

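In 18 of 115 groups of 4 to 10 mice (15.7%), 1 mouse lay far from the others by Dixon's criterion, which chance gives in about 1 in 20 groups, and members of 1 mouse are not independent. In liver, mouse J51 of day 14 was far above the others in Orm1 (20.2), Orm2 (4.40), Lcn2 (5.37), Hp (31.0) and Itih4 (28.6). Mouse J7 of day 1 was far below the other 4 in Orm2 (2.58) and Hp (30.1). In mesenteric fat the flagged mice were J60 in Saa3 (7.63) and J15 in Lcn2 (3.65) at day 1, N98 in Orm1 (8.39) at day 14, and at day 60 N59 in Saa2 (0.114) and Itih4 (0.563) and N82 in Hp (18.9). In perigonadal fat they were J47 in Saa2 (0.106) at day 14, N10 in Saa3 (1.77) at day 42 and N62 in Orm2 (0.0607) at day 60. In perirenal fat J13 stood apart in Lcn2 (0.279) at day 14, and in subcutaneous fat J60 in Itih4 (0.649) at day 1. The cause was not tested for any of them.

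In 18 cases the liver change and a depot's change differed in limma. At day 1 these were Lcn2 against subcutaneous (1.63), perirenal (1.38) and perigonadal fat (1.23), and Orm2 against mesenteric (0.95), perirenal (0.95) and perigonadal fat (1.02), on the log2 scale as liver minus depot. At day 3 it was Lcn2 against perirenal fat (1.02). At day 42 it was Saa3 against mesenteric (1.29), perirenal (1.26) and perigonadal fat (1.56), Orm1 against subcutaneous (0.58), mesenteric (0.24), perirenal (0.18) and perigonadal fat (0.41), and Hp against the same depots (0.25, 0.11, 0.12 and 0.051).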

How the results depend on the processing

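The 59 called results of single genes kept their direction in all 664 alternative values, and 84 of these values missed the threshold, 52 of them in fits on J or N mice alone, which use fewer mice. Counts below are calls over members and days 1 to 60 unless stated. They compare settings, and the shares of all genes called under each alternative are not given here. Liver had 13 calls, 4 with J mice alone (14 of 48 at an unadjusted p under 0.05), 0 in limma with N mice alone (11 of 48) and 11 to 14 with 1 mouse left out. Subcutaneous fat had 5, 3 without the letter term, 0 with J alone in limma (11 of 42 unadjusted), 1 with N alone, 1 without the 27 of 78 arrays far from the median in markers of other tissues, and 2 to 6 with 1 mouse left out, 2 being without N82. Mesenteric fat had 17, 6 with J and 11 with N alone, and 15 to 18 with 1 mouse left out. Perirenal fat had 14, 5 with J and 7 with N alone, and 11 to 16 with 1 mouse left out. Perigonadal fat had 10, 4 with J alone, 6 without 22 of 75 far arrays, and 10 in each fit with 1 mouse left out. Liver at day 1 had 7 members called, and 5 to 7 with 1 of its mice left out. For day 42 against day 3, liver had 6 (J alone 1, N alone 2), mesenteric fat 4 (J alone 1) and perirenal fat 4 (J and N alone 2 each).

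With the animal as a replicate block, the paired liver minus depot differences gave 6 calls at day 1, as without it, 2 in place of 1 at day 3 and 10 in place of 11 at day 42, and it changed no call other than those named above. With an offset of 0.1 there were 7 at day 1 and 2 at day 3. The cause of these shifts was not tested. Values near the top of the intensity scale (Hp and Itih4 in liver) and near its floor (Saa2 and Apcs in fat) limit the size of change that can be read. Fits on J mice have no day 60 and fits on N mice no day 1.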
